A study of Mus musculus with 5 samples.

Results

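The genes examined are 40 enzymes of purine and pyrimidine metabolism, given by symbol and matched to the Ensembl identifiers of the mouse GRCm38 annotation. Each symbol matched 1 of the 55487 identifiers in the count table, and 39 of the 40 had enough counts to be tested. The RNA came from common lymphoid progenitors (CLPs), the bone marrow cells from which lymphocytes arise, sorted as lineage-negative cells with CD127 (the product of Il7r) and Flt3 on their surface. The 3 SF1 libraries are from SclCre;JAK2-V617F mice, in which Cre recombinase driven by the Scl gene of blood stem and progenitor cells is combined with the mutant kinase of myeloproliferative neoplasms, and the 2 WT libraries are from wild-type mice. The labels place both groups 16 weeks after tamoxifen and do not give ages or say whether the wild-type mice carried Cre or whether a library is 1 animal or a pool. The p-values below therefore measure the spread between these 5 libraries, which may be in part technical.

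Cells make nucleotides by a de novo route, which builds the ring of a purine or pyrimidine from amino acids, carbon dioxide and one-carbon units carried by folate, and by salvage, which returns free bases and nucleosides to nucleotides. Phosphoribosyl pyrophosphate (PRPP) supplies the sugar phosphate for both routes, and ribonucleotide reductase turns ribonucleotides into the deoxynucleotides of DNA. Lymphoid precursors divide fast and depend on both routes, and loss of adenosine deaminase or purine nucleoside phosphorylase is a known cause of immunodeficiency.

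The libraries held 8894288 to 20424296 counts in genes, so that 1 count was worth 0.0503 to 0.114 CPM (counts scaled to the effective library size), and 14423 genes passed the filter on low counts. Of these, 16.5% passed the edgeR quasi-likelihood test at an adjusted p under 0.05, 9.74% lower and 6.77% higher in SF1, and the median log2 fold change of SF1 over WT was 0.02. The CLP markers were present throughout: Flt3 stood at 1511 to 1700.0 CPM, Il7r at 331 to 465 CPM and Dntt at 4885 to 5374 CPM. Of 10 CLP markers 2 were higher and 3 lower in SF1, with log2 fold changes from -0.999 to 0.925. Of the sort genes, Il7r was higher in SF1 (log2 fold change 0.32, adjusted p = 0.0318, and 0.062 with a correction for GC content and exon length). Flt3 did not pass (0.12, adjusted p = 0.233). Jak2 read 68.1, 67.8 and 63.3 CPM in SF1 and 58.4 and 35.4 CPM in the wild-type pair (adjusted p = 0.104, and 0.00685 without WT replicate 1); a gene count does not separate the V617F allele from the normal one, so it does not check the genotype. Markers of other cells differed between the groups. The 12 neutrophil and monocyte markers summed to 2424, 3041 and 6199 CPM in SF1 replicates 1 to 3 and to 1099.7 and 1412 CPM in WT. Of 9 B-lineage markers tested 7 were lower (summed 1006 to 1401 CPM in SF1, 1615 to 1805 in WT). Erythroid markers summed to 77.1 to 101 CPM in SF1 and 180.3 to 204 CPM in WT. Macrophage markers summed to 7.09 to 10.8 CPM in SF1 and 22.5 to 29.7 CPM in WT. Dendritic markers summed to 1812 to 2259 CPM in SF1 and 1058 to 1200.4 CPM in WT. NK, innate lymphoid and T markers summed to 225 to 239 CPM in SF1 and 178 to 187 CPM in WT. Gzmb was at 0 in every library and Cd3e, Cd3d and Cd3g were at or under 0.551 CPM. Plasma cell markers summed to 776 to 1003 CPM in SF1 and 362 to 398 CPM in WT. Log2 fold changes reached -7.54, -7.11 and 8.46 in the erythroid, macrophage and plasma cell lists. Some of these genes may have passed the filter on low counts only through the group where they are high, so their calls are not counted. The same may hold for some neutrophil and monocyte markers, with log2 fold changes up to 4.76. It may also hold for some dendritic markers (up to 1.87) and some NK, innate lymphoid and T markers (up to 2.30). Calls in these lists are not counted either. The part of these markers in the results on nucleotide genes was not tested, and in bulk RNA fewer cells of a type and less RNA per cell cannot be told apart.

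Among the 39 tested genes, 13 were lower in SF1 CLPs, 1 was higher and 25 did not pass. That is 33.3% lower and 2.56% higher, beside 9.74% and 6.77% of all genes tested, and beside 13.4% and 7.67% of the 9243 genes at least as abundant as the least abundant member tested (13.1 CPM). The fold changes were negative for 32 of the 39 and positive for 7, with a median of -0.22 on the log2 scale against 0.02 over all genes tested. Both WT libraries lay above all 3 SF1 libraries for 23 members, and below them for 2; over all genes tested the shares with these orders were 24.2% and 24.8%. The drop was steepest for Cad and Ampd2, whose SF1 means were 37.0% and 36.5% of the WT means, and next for Impdh1; the other 10 genes that fell lay between -0.50 (Gart) and -0.33 (Uck2) on the log2 scale. Samhd1, which destroys deoxynucleotides, was the one gene to rise. By role, 6 of 17 de novo enzymes fell (median -0.26), 4 of 10 salvage and turnover enzymes (median -0.25) and 3 of 4 folate enzymes (median -0.42), while none of 3 nucleotide kinases (median 0.03) and none of 5 deoxynucleotide enzymes (median -0.07) did; the differences between these classes were not tested. The number of lower members depended on the libraries: it was 8 without SF1 replicate 2, 7 without SF1 replicate 3 and 6 without WT replicate 1, when 770, 827 and 522 of all genes were lower, against 1405 with all libraries. Cad, Gart, Impdh1, Ampd2, Shmt1 and Mthfd1 stayed lower and Samhd1 higher past the threshold in each of 14 alternative analyses (other tools, filters and corrections, and each library left out).

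**Figure D1:**
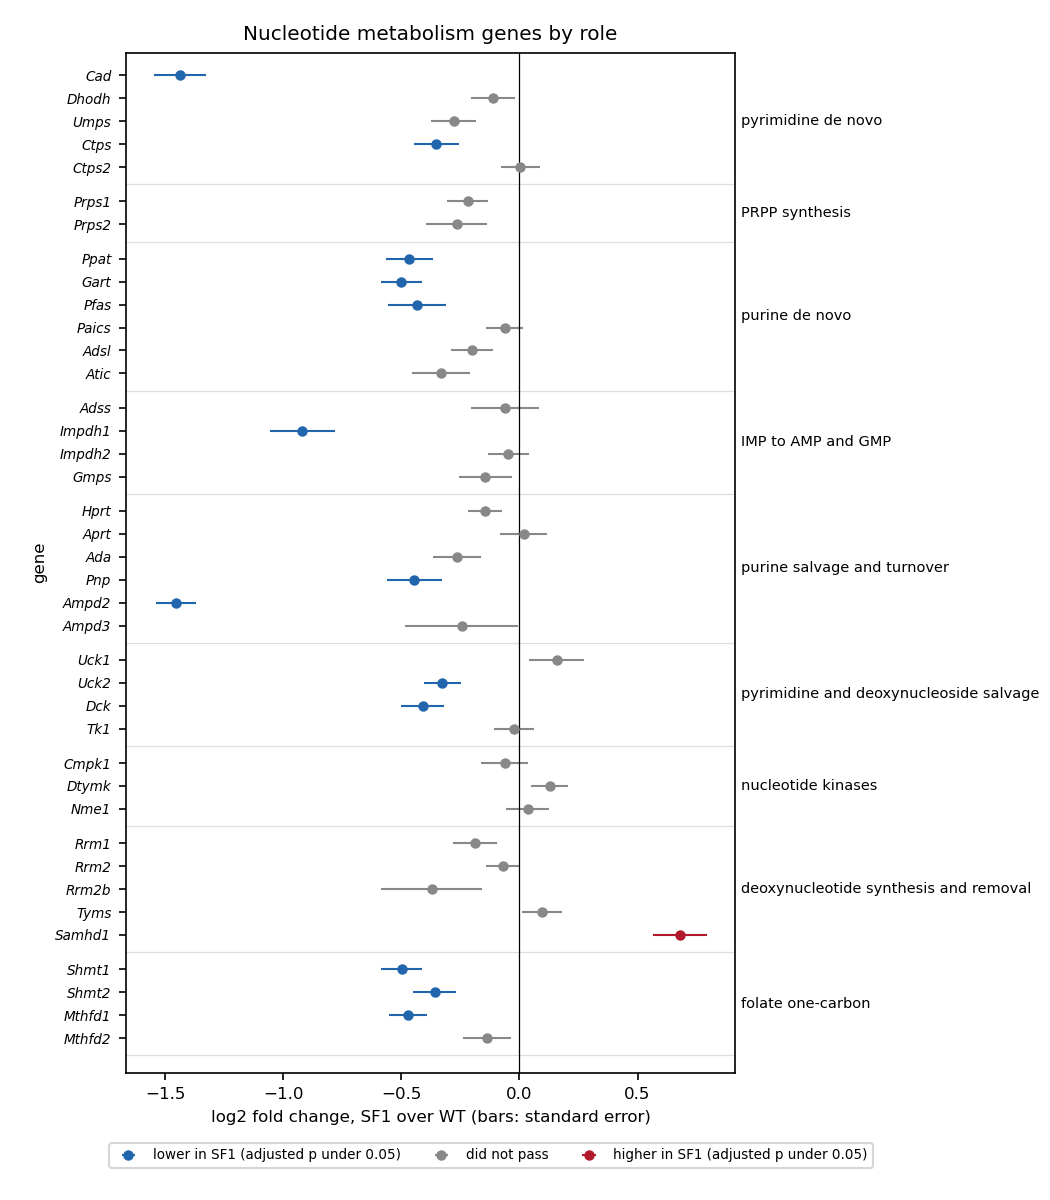
Log2 fold change of SF1 over WT (x axis) with its standard error for the 39 tested nucleotide metabolism genes (y axis), ordered by role, from the edgeR fit to 3 SF1 and 2 WT libraries. Blue marks the 13 genes that were lower, red the 1 that was higher and grey the 25 that did not pass; Cad and Ampd2 lie farthest to the left, near -1.44 and -1.45.

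The sequence just before the RefSeq start of 4 of the 6 genes that stayed lower throughout is shown here because in these 4 the 120 bases before the start hold no annotated exon. Each is read 5′ to 3′ on the gene's strand and ends at the base before the start, from RefSeq's GRCm38.p6 annotation: Cad at chr5:31054660-31054779 (plus strand), Gart at chr16:91646973-91647092 (minus), Impdh1 at chr6:29216365-29216484 (minus) and Shmt1 at chr11:60811266-60811385 (minus). The gene spans printed below are Ensembl's, in which Shmt1 starts farther upstream, so its window lies inside that span, between exons. Capitals mark GGGCGG, the core of the GC box that Sp1-type factors bind, and CCAAT, on either strand (CCGCCC and ATTGG when read in reverse).
Cad: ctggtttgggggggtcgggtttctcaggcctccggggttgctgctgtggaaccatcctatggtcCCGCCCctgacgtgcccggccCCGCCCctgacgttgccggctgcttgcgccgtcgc
Gart: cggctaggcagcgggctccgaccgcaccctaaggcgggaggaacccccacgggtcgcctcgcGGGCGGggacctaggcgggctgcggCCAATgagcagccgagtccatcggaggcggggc
Impdh1: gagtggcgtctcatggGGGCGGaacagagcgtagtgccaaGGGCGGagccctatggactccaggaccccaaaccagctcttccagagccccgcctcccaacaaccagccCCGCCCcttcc
Shmt1: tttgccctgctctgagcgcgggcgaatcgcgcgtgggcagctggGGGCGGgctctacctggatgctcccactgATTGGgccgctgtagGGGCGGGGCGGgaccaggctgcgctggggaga
All 4 windows hold GGGCGG or its reverse, and those of Gart and Shmt1 also hold CCAAT or its reverse. In the 250 bases before the start, 27 of the 37 members with a listed promoter (73.0%) hold GGGCGG on either strand, against 32.9% of 27025 mouse promoters and 57.7% of the 10128 promoters that matched tested genes; among the 12 lower members with a promoter it is 11. CCAAT is in 14 of 37 (37.8%, against 34.5% of all and 36.7% of those of tested genes) and in 4 of the 12. The E-box CACGTG, bound by Myc and related factors, is in 6 of 37 (16.2%, against 6.05% of all and 8.44% of those of tested genes): Atic, Dtymk, Tyms, Paics, Impdh2 and Nme1, none of which passed the test, and in 0 of the 12 lower members. The E2F forms TTTGGCGC and TTTCGCGC are in 0 of 37, against 0.437% and 0.255% of all promoters and 0.839% and 0.523% of those of tested genes. These are matches of letters, not measured binding, and Dhodh, Pfas and Rrm2b had no listed promoter. Apart from promoters, the GC content of a gene's longest transcript and its exon length moved weakly with the fold change. Spearman's rho was -0.15 with GC and -0.19 with length over all genes tested, which share the same 5 libraries. Over the 39 members it was -0.20 and -0.21. Values with that trend removed are given below for Cad and Ampd2 and for each gene named there whose call they end or begin.

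The pyrimidine ring is built by Cad, Dhodh and Umps, and Ctps and Ctps2 then turn UTP into CTP. Cad (ENSMUSG00000013629, chr5:31054780-31078479, plus strand) encodes the protein that carries out the first steps, and it fell most of the 5. It read 97.2, 99.5 and 87.4 CPM in SF1 replicates 1 to 3 and 285 and 227 CPM in WT replicates 1 and 2. Every SF1 library was under the lower WT library, and the SF1 values were closer to each other than the WT values were. The means were 94.7 ± 6.42 CPM in SF1 (SD, n = 3) and 256 ± 41.3 CPM in the 2 WT libraries (SD, n = 2), a 2.71-fold lower level in the fit (log2 change -1.44 with SE 0.11, adjusted p = 0.000209); the log2 change was -1.12 with the trend on GC and length removed. The next enzymes differed less. Dhodh, which works in the mitochondrion, was at 61.6 to 65.9 CPM in SF1 and 68.1 and 69.7 CPM in the wild-type pair (adjusted p = 0.455), and Umps, which completes UMP, read 268, 265 and 224 CPM in SF1 and 309 and 303 CPM in the 2 WT libraries (log2 fold change -0.28, adjusted p = 0.0734). The groups did not overlap for either gene. Umps passed the threshold under DESeq2 (adjusted p = 0.0378), without the filter on low counts (0.0133) and with the GC and length correction (0.0352). Ctps (ENSMUSG00000028633, chr4:120539868-120570276, minus strand) read 99.9, 110.1 and 92.8 CPM in SF1 and 132 and 125 CPM in WT, again without overlap (log2 change -0.35 with SE 0.09, adjusted p = 0.0358). It did not pass with 1 library left out, namely SF1 replicate 1 (adjusted p = 0.0666), SF1 replicate 3 (0.112), WT replicate 1 (0.191) or WT replicate 2 (0.0648). Its X-linked counterpart Ctps2 read 188, 209.8 and 199.5 CPM in SF1 and 196 and 201 CPM in WT, where the groups overlapped.

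Purine synthesis starts from PRPP, made by Prps1 and Prps2, neither of which passed (log2 fold changes -0.22 and -0.26, adjusted p = 0.118 and 0.198). Prps1 passed with the GC and length correction (adjusted p = 0.00889), and Prps2 without the filter on low counts (0.0257). Of the 6 enzymes that build the purine ring, Ppat, Gart and Pfas fell, and Paics, Adsl and Atic did not pass. Ppat (ENSMUSG00000029246, chr5:76913249-76951578, minus strand), the committed step, read 158, 162 and 132 CPM in SF1 and 211 and 205 CPM in WT. Ppat had a log2 change of -0.47 (SE 0.10, adjusted p = 0.0148). All SF1 libraries were lower, with replicate 3 the lowest, and without WT replicate 1 the adjusted p was 0.0826. Gart (ENSMUSG00000022962, chr16:91621186-91646952, minus strand), a protein with several activities of the pathway, read 314, 279 and 276 CPM in SF1 and 426 and 392 CPM in WT. The groups did not overlap, and the fitted level was 1.41-fold lower (log2 change -0.50 with SE 0.09, adjusted p = 0.00579). The antisense gene Gm15964 covers 19.71% of its exon bases and held 496 to 533 counts in SF1 and 1470 and 636 in WT, against 2952 counts or more for Gart. Pfas (ENSMUSG00000020899, chr11:68985697-69008460, minus strand), which uses glutamine at a later step, read 37.5, 39.7 and 32.4 CPM in SF1 and 51.9 and 46.7 CPM in WT. Pfas had a log2 change of -0.44 (SE 0.12, adjusted p = 0.0424). That difference was the least stable of the 14: it did not pass with any 1 library left out (adjusted p = 0.064, 0.0641 and 0.123 without SF1 replicates 1 to 3, 0.248 and 0.0583 without WT replicates 1 and 2), with libraries thinned to the smallest total (0.0544) or with the GC and length correction (0.19). Paics was the most abundant of the purine ring enzymes per length, at 185 to 208 RPKM (CPM per kilobase of exon), and its groups overlapped (588, 653 and 581 CPM in SF1, 627 and 642 CPM in WT). Paics and Ppat lie head to head on chromosome 5 and share 272 exon bases, 6.15% of Ppat and 8.67% of Paics, and the sources used here give no strand setting for the counting. Adsl (log2 fold change -0.20, adjusted p = 0.16) and Atic (-0.33, adjusted p = 0.1) were lower in every SF1 library than in either WT library without passing; Atic passed without the filter on low counts (adjusted p = 0.0388).

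IMP, the product of that pathway, goes to GMP through Impdh1 or Impdh2 and then Gmps, and to AMP through Adss and then Adsl. Impdh1 (ENSMUSG00000003500, chr6:29200434-29216364, minus strand) was the 1 of these 4 enzymes (Impdh1, Impdh2, Gmps and Adss) that passed. It read 242, 178 and 179.6 CPM in SF1 and 409 and 346 CPM in WT, a 1.89-fold lower level (log2 change -0.92 with SE 0.14, adjusted p = 0.00336). The groups did not overlap, and SF1 replicate 1 lay above the other SF1 libraries, as it also did in the summed B-lineage markers (1401 CPM against 1023 and 1006). Cad and Ampd2, the genes with the steepest drops, did not have that order and were highest in SF1 replicate 2. Whether the level of Impdh1 is linked to those markers was not tested. Impdh2 read 139.7, 125 and 123 CPM in SF1 and 131 and 135 CPM in WT, where the groups overlapped. Gmps (-0.15, adjusted p = 0.413) and Adss (-0.06, adjusted p = 0.808) did not pass either, and Adss ranged from 118 to 175 CPM over the SF1 libraries.

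**Figure D2:**
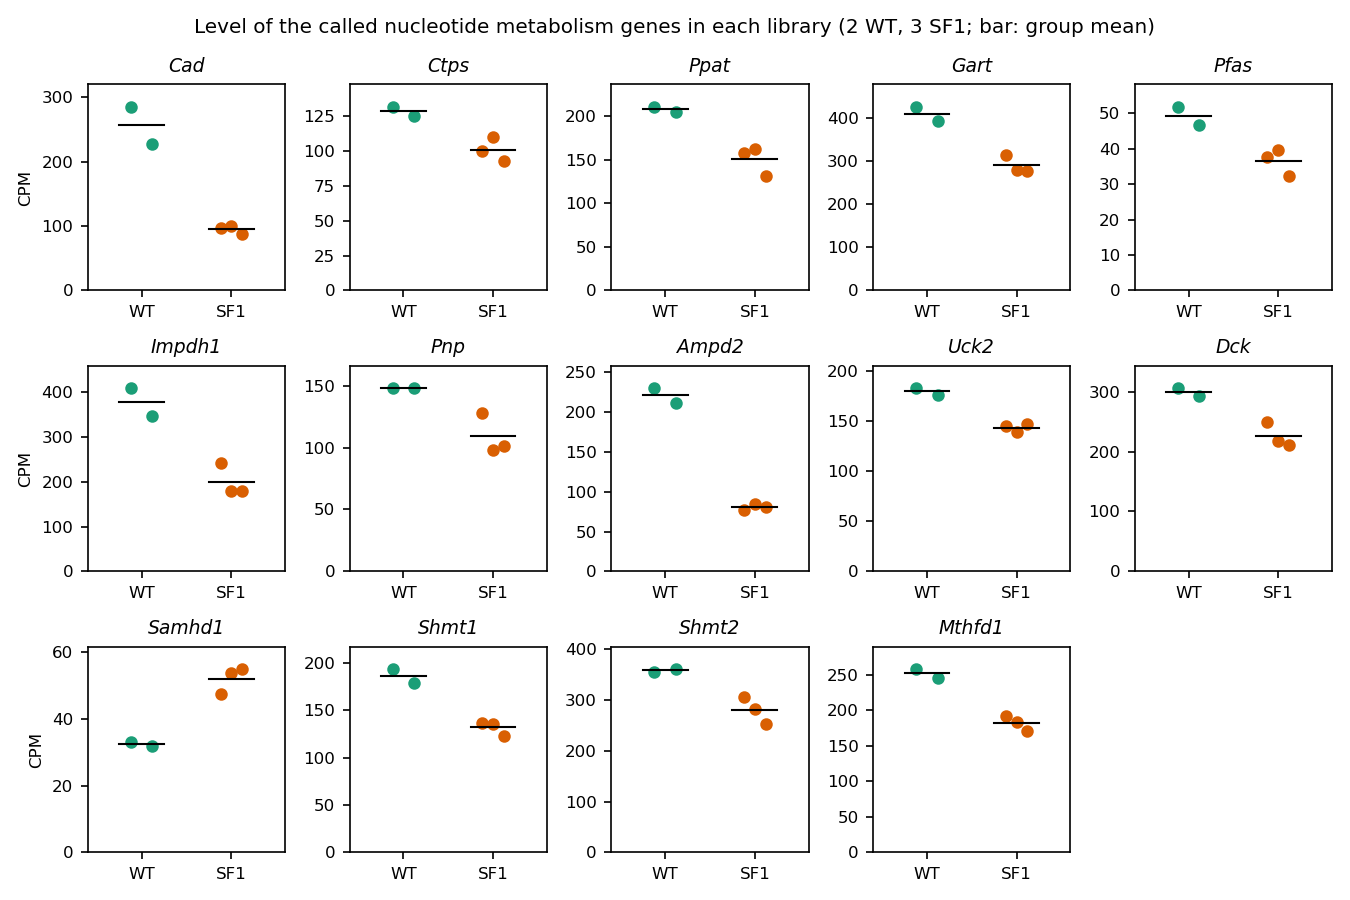
CPM (y axis, from 0) of the 14 genes that passed the test in each of the 2 WT (green) and 3 SF1 (orange) libraries; the black bar is the group mean. In every panel but that of Samhd1 both WT points lie above all SF1 points, and in that of Samhd1 the order is reversed.

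Purine salvage and turnover enzymes recover bases (Hprt and Aprt), break down nucleosides (Ada and Pnp) and deaminate AMP to IMP (Ampd2 and Ampd3). Ampd2 (ENSMUSG00000027889, chr3:108074062-108086651, minus strand) had a drop close in size to that of Cad. It read 76.6, 84.8 and 80.97 CPM in SF1 and 231 and 212 CPM in WT. Every SF1 library was far under both WT libraries. The means were 80.8 ± 4.1 CPM in SF1 (SD, n = 3) and 221 ± 13.7 CPM in the 2 WT libraries (SD, n = 2), 2.74-fold lower (log2 change -1.45 with SE 0.09, adjusted p = 8.03e-05). With the trend on GC and length removed the log2 change was -1.21. The antisense gene Gm12500 covers 8.31% of its exon bases and held 54 to 66 counts in SF1 and 350 and 150 in WT, against 720 counts or more for Ampd2. Ampd3, the isozyme of red cells, was less abundant per length (1.74 to 3.28 RPKM, against 14.7 to 44.2 for Ampd2), and read 9.79, 16.03 and 18.5 CPM in SF1 and 17.8 and 17.3 CPM in WT, where the groups overlapped. Pnp (ENSMUSG00000115338, chr14:50931082-50965237, plus strand) read 128, 97.9 and 102 CPM in SF1 and 148 and 148 CPM in WT. Pnp had a log2 change of -0.44 (SE 0.12, adjusted p = 0.0329). SF1 replicate 1 was again the highest of its group, and the result did not pass with 1 library left out, namely SF1 replicate 2 (adjusted p = 0.106), SF1 replicate 3 (0.112), WT replicate 1 (0.132) or WT replicate 2 (0.0831). Pnp has a near-identical neighbour, Pnp2 (10.1, 8.32 and 8.73 CPM in SF1, 13.8 and 12.8 CPM in the wild-type pair, with an adjusted p of 0.0673), and shares 18.04% of its exon bases with Gm49342, so its count is uncertain where reads fit both. Ada was 1.20-fold lower without passing (56.6, 55.6 and 52.6 against 69.2 and 62.4 CPM, adjusted p = 0.11). Hprt, with Paics the most abundant member per length at 186 to 214 RPKM, had a log2 fold change of -0.15 (adjusted p = 0.208), which was -0.46 (adjusted p = 0.00497) with the GC and length correction. Aprt did not pass (log2 fold change 0.02, SE 0.10).

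Pyrimidine and deoxynucleoside salvage rests on kinases: Uck1 and Uck2 for uridine and cytidine, Dck for deoxycytidine and purine deoxynucleosides, and Tk1 for thymidine. Dck (ENSMUSG00000029366, chr5:88764996-88783281, plus strand), whose product is needed for lymphocyte development, read 249, 217 and 210.2 CPM in SF1 and 307 and 292 CPM in WT. Dck had a log2 change of -0.41 (SE 0.09, adjusted p = 0.0169). All SF1 libraries were lower, and the adjusted p was 0.0691 without SF1 replicate 2, 0.0628 without SF1 replicate 3 and 0.102 without WT replicate 1. Uck2 (ENSMUSG00000026558, chr1:167222883-167285320, minus strand) read 145, 139 and 147 CPM in SF1 and 183 and 176 CPM in WT, with SF1 libraries close together and below both WT libraries (log2 change -0.33 with SE 0.08, adjusted p = 0.022). It did not pass with 1 library left out, namely SF1 replicate 2 (adjusted p = 0.0751), SF1 replicate 3 (0.0564) or WT replicate 1 (0.131), or with the GC and length correction (0.159). Uck1 (log2 fold change 0.16, adjusted p = 0.387) and Tk1 (-0.02, adjusted p = 0.885) did not pass, and Tk1 was nearly the same in all libraries, at 92.5 to 99.7 CPM.

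Among the enzymes nearest to DNA synthesis, 1 of the 8 tested passed, beside 16.5% of all genes tested. Cmpk1, Dtymk and Nme1, kinases that raise monophosphates and diphosphates to the next level, had log2 fold changes of -0.06, 0.13 and 0.03, and none passed. Nme2 was the 1 member not tested: it held 3 to 10 counts a library, and 48.93% of its exon bases (12.51% of those of Nme1) lie in the readthrough gene Gm20390, itself at 0 counts, so its level cannot be read from this table. The subunits of ribonucleotide reductase did not pass: Rrm1, the large subunit, read 613, 706 and 577 CPM in SF1 and 710.0 and 731 CPM in the 2 WT libraries (log2 fold change -0.19, adjusted p = 0.197), and Rrm2, the small subunit of dividing cells, read 454, 444 and 425 CPM in SF1 and 467 and 459 CPM in the wild-type pair (log2 fold change -0.07, adjusted p = 0.538). Both WT libraries were above all SF1 libraries for Rrm1 and for Rrm2, by narrow margins. Rrm2b, the p53-dependent small subunit, was scarce at 1.09 to 1.82 RPKM and overlapped between groups, as did Tyms, which makes thymidylate (0.10, adjusted p = 0.478). Samhd1 (ENSMUSG00000027639, chr2:157097533-157135265, minus strand), a triphosphohydrolase that removes deoxynucleotides, read 47.3, 53.8 and 55.1 CPM in SF1 and 33.2 and 31.8 CPM in WT. Every SF1 library was above both WT libraries, and the level was 1.602-fold higher (log2 change 0.68 with SE 0.12, adjusted p = 0.00558). Samhd1 is also abundant in myeloid cells, whose markers were higher in the same SF1 libraries. Its levels were 47.3, 53.8 and 55.1 CPM where those markers summed to 2424, 3041 and 6199 CPM. The part of such cells in the level of Samhd1 was not tested.

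Folate enzymes load and interconvert the one-carbon units that purine and thymidylate synthesis consume: Shmt1 and Mthfd1 in the cytosol, Shmt2 and Mthfd2 in the mitochondrion. All 4 were lower in every SF1 library than in either WT library, and 3 passed. Over all genes tested, 24.2% had that order and 9.74% passed as lower. Shmt1 (ENSMUSG00000020534, chr11:60788104-60811718, minus strand) read 137, 136 and 123 CPM in SF1 and 194 and 178 CPM in WT, 1.41-fold lower (log2 change -0.50 with SE 0.09, adjusted p = 0.00605). Mthfd1 (ENSMUSG00000021048, chr12:76255298-76319803, plus strand) read 192, 183 and 171 CPM in SF1 and 259 and 246 CPM in WT, 1.39-fold lower (log2 change -0.47 with SE 0.08, adjusted p = 0.00616). The difference between the cytosolic and mitochondrial pairs was not tested. Of the mitochondrial pair, Shmt2 (ENSMUSG00000025403, chr10:127517123-127522444, minus strand) read 305, 283 and 252 CPM in SF1 and 356 and 362 CPM in WT. Shmt2 had a log2 change of -0.36 (SE 0.09, adjusted p = 0.0293). Shmt2 did not pass with 1 library left out, namely SF1 replicate 2 (adjusted p = 0.0846), SF1 replicate 3 (0.0821), WT replicate 1 (0.108) or WT replicate 2 (0.0834), or with the GC and length correction (0.137). Mthfd2 read 45.6, 44.2 and 41.9 CPM in SF1 and 48.8 and 47.7 CPM in the 2 WT libraries (log2 fold change -0.14, adjusted p = 0.401).

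**Figure D3:**
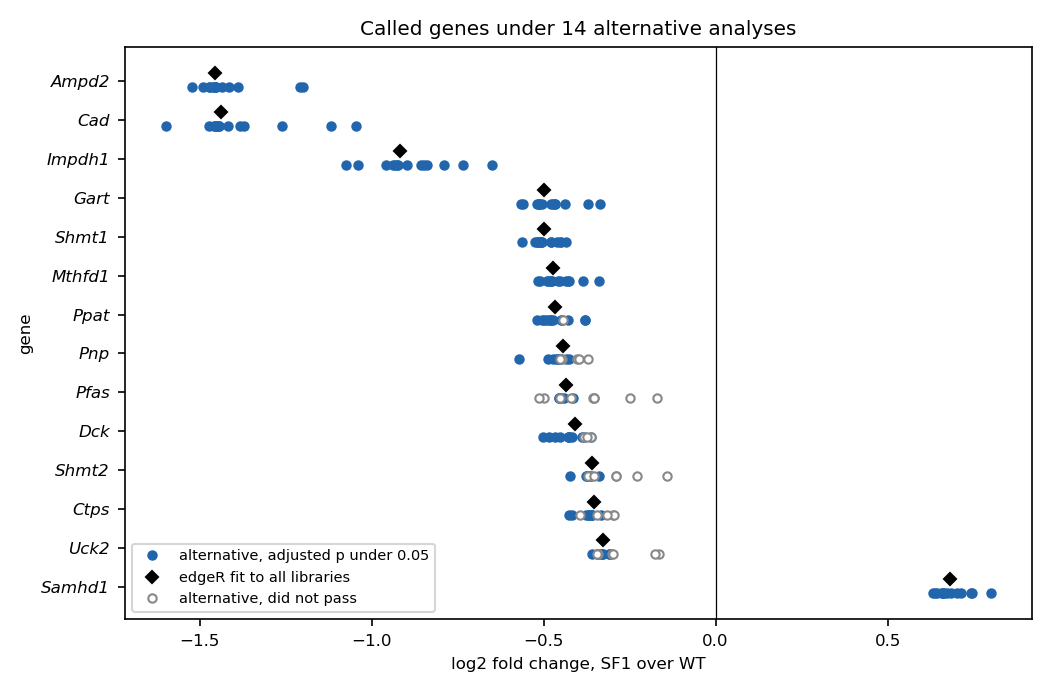
Log2 fold change of SF1 over WT (x axis) for the 14 genes that passed the test (y axis), from the edgeR fit to all libraries (black diamonds) and from 14 alternative analyses (circles, filled blue where the adjusted p was under 0.05, open grey where it was not). Cad, Gart, Impdh1, Ampd2, Shmt1, Mthfd1 and Samhd1 have filled circles throughout, and Pfas has 9 open ones.

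Several members are isozymes of each other, and their ratio of RPKM within a library does not depend on the library's scaling. The ratio of Impdh1 to Impdh2 was 2.91 and 2.39 in WT and 1.62, 1.33 and 1.37 in SF1 replicates 1 to 3. That of Ampd2 to Ampd3 was 14.01 and 13.2 in WT and 8.43, 5.70 and 4.72 in SF1. Both ratios were lower in each SF1 library than in each WT library. The same order held for Mthfd1 over Mthfd2 (4.16 and 4.04 in WT, 3.30, 3.25 and 3.20 in SF1), for Ctps over Ctps2 (0.961 and 0.887 in WT, 0.758, 0.747 and 0.662 in SF1) and, by a narrow margin, for Shmt1 over Shmt2 (0.436 and 0.394 in WT, 0.359, 0.384 and 0.391 in SF1). Uck1 over Uck2 went the other way, at 0.651 and 0.641 in WT and 0.982, 0.955 and 0.781 in SF1. The ratios of Prps1 to Prps2 and of Rrm2 to Rrm2b overlapped between the groups. No test was made on these ratios.

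**Figure D4:**
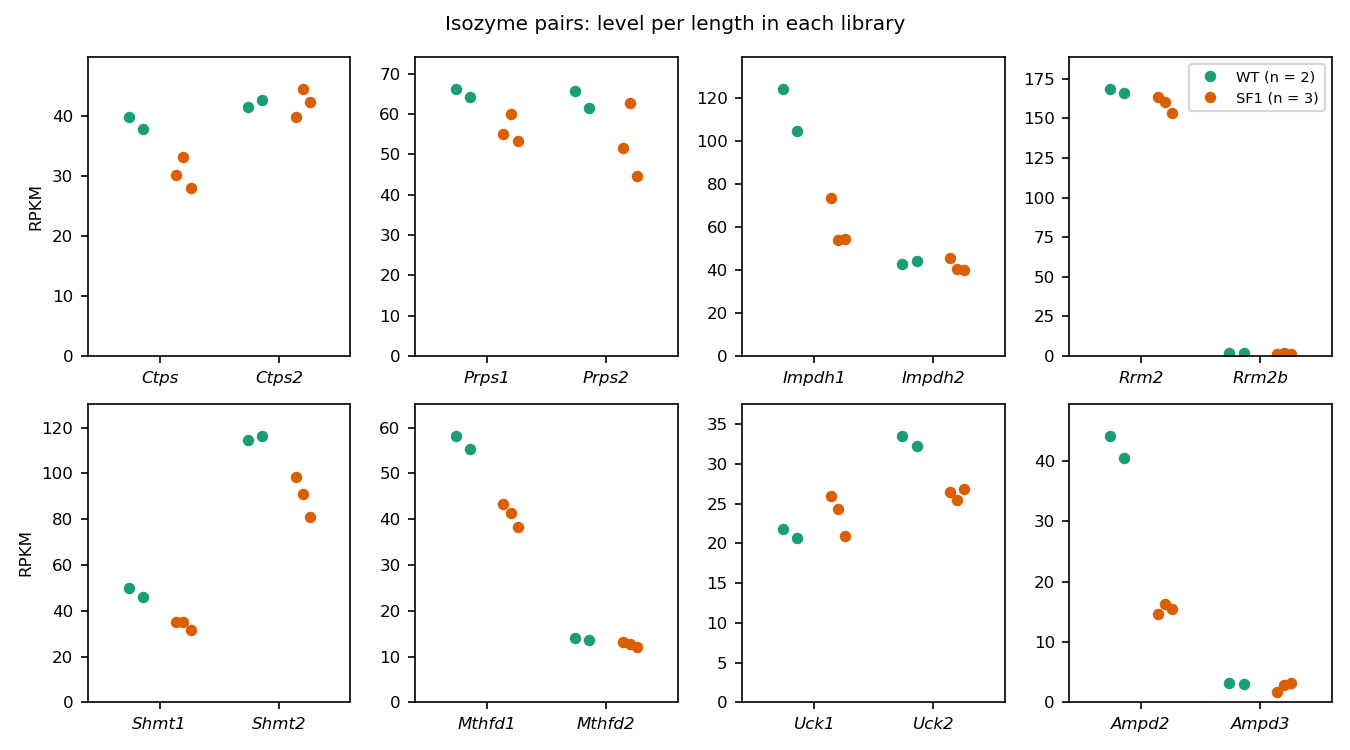
RPKM (y axis, linear from 0) of both genes of 8 isozyme pairs, 1 panel a pair, in each of the 2 WT (green) and 3 SF1 (orange) libraries. For Impdh1, Ampd2 and Uck2 both WT points lie above all SF1 points, while the points of Impdh2, Ampd3 and Uck1 overlap between the groups.

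A list of 75 other genes of nucleotide and folate metabolism was examined in the same fit. Of the 62 with enough counts, 9 were lower (14.5%, beside 9.74% of all genes), 4 higher and 49 did not pass, with a median log2 fold change of -0.03. The 4 higher include Gda and Upb1, which had enough counts only through the SF1 libraries, so no share is given for them. With a minimum count of 50, which drops both, 2 were higher. Folate, one-carbon and serine genes held 6 of the 9, out of 14 tested (median -0.27). Mthfd1l, the mitochondrial formate-making enzyme, read 91.2, 79.7 and 75.4 CPM in SF1 and 126 and 120.5 CPM in WT (log2 change -0.59 with SE 0.10, adjusted p = 0.00552). Mtr, methionine synthase, read 64.99, 57.1 and 48.8 CPM in SF1 and 100.1 and 85.6 CPM in WT (log2 change -0.71 with SE 0.13, adjusted p = 0.00792), and without WT replicate 1 its adjusted p was 0.0696. The groups did not overlap for either gene. In serine synthesis Psat1 was lower (log2 fold change -0.35, adjusted p = 0.0247), but not past the threshold with 1 library left out, namely SF1 replicate 2 (0.0779), SF1 replicate 3 (0.0868) or WT replicate 1 (0.174), and Phgdh, the most abundant gene of that list by CPM, did not pass (-0.06, adjusted p = 0.673). Among 9 carriers, the nucleoside carrier Slc29a2 (log2 fold change -1.13, adjusted p = 0.0231) and the folate carrier Slc19a1 (-0.39, adjusted p = 0.0293) were lower. Without WT replicate 1 neither passed (0.209 and 0.159), nor without SF1 replicate 2 (0.0614 and 0.06) or SF1 replicate 3 (0.0561 and 0.0833), and Slc19a1 did not without WT replicate 2 (0.0606) or with the GC and length correction (0.135). Slc29a1, the most abundant carrier, did not pass (-0.15, adjusted p = 0.278).

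Salvage and breakdown genes outside the member list went both ways. Adk, adenosine kinase, was lower (-0.33, adjusted p = 0.0453). Uckl1 (log2 fold change 0.30, adjusted p = 0.0417) and the nucleotidase Nt5c (0.31, adjusted p = 0.0477) were higher. With all libraries kept, Uckl1 and Nt5c did not pass under DESeq2 (adjusted p = 0.0765 and 0.0773) or without the filter on low counts (0.0928 and 0.0827). Nt5c did not pass with DESeq2 size factors in edgeR (0.0511), nor Adk with libraries thinned to the smallest total (0.0567). With the replicate number as a block, Adk, Uckl1 and Nt5c did not pass (0.151, 0.141 and 0.172). Each of these 3 also lost its call with some library left out. Without WT replicate 1 the adjusted p was 0.235 for Adk, 0.149 for Uckl1 and 0.232 for Nt5c, and without SF1 replicate 3 it was 0.13, 0.111 and 0.139. Without SF1 replicate 2 it was 0.0946, 0.0916 and 0.103, without WT replicate 2 0.0708, 0.153 and 0.112, and without SF1 replicate 1 it was 0.0659 for Uckl1 and 0.0559 for Nt5c. The other two genes counted as higher, Gda and Upb1, had enough counts to be tested only through the SF1 libraries, where they are high, and they are given as values without their test. Gda, guanine deaminase, was at 1.38, 2.71 and 7.54 CPM in SF1 and 0.755 and 0.114 CPM in WT, from 13, 31 and 82 counts in SF1 and 15 and 1 in WT. Upb1, of pyrimidine breakdown, was at 1.91, 4.47 and 4.69 CPM in SF1 and 0.704 and 1.25 CPM in WT, from 18, 51 and 51 counts in SF1 and 14 and 11 in WT. Gda was highest in SF1 replicate 3, the library with the highest summed neutrophil and monocyte markers. None of 5 tested genes of PRPP and purine synthesis, of 10 other nucleotide kinases or of 4 genes that cleanse the deoxynucleotide pool passed. Over all genes tested 16.5% passed, and lists this short say little beside that share. Among them Prpsap1 (-0.02), Ak3 (-0.01) and Dut (-0.06) had small log2 fold changes. Ampd1, Dpyd, Dpys and Ftcd had 0 counts in every library.

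Many of these enzymes are more abundant in dividing cells, so genes of DNA replication and mitosis were set beside them. Of 24 S phase genes 7 were lower and none higher (29.2% lower, beside 9.74% of all genes, median log2 fold change -0.24), and of 20 mitotic genes 4 were lower and none higher (median -0.15). Uhrf1, which directs maintenance methylation to new DNA, read 323, 288 and 269 CPM in SF1 and 597 and 586 CPM in WT (log2 change -1.01 with SE 0.09, adjusted p = 0.000371), and Cdt1, which loads the replicative helicase, read 101, 76.2 and 81.7 CPM in SF1 and 150.3 and 156 CPM in WT (log2 change -0.82 with SE 0.12, adjusted p = 0.00284). Chaf1a, of the histone chaperone CAF-1, was lower by less (-0.42, adjusted p = 0.0187). Mcm6 and Mcm3, the most abundant S phase genes by CPM, did not pass (-0.22 and -0.28, adjusted p = 0.0962 and 0.0686). Without the filter on low counts both passed (0.0163 and 0.00358), and Mcm3 also passed under DESeq2 (0.0286), under limma (0.046) and without SF1 replicate 1 (0.0364). Uhrf1 and Cdt1 kept their direction and their adjusted p under 0.05 in all 14 alternatives, while the S phase count was 2 when SF1 replicate 2, SF1 replicate 3 or WT replicate 1 was left out, and 13 without the filter on low counts. Chaf1a did not pass without those 3 libraries (adjusted p = 0.06, 0.0583 and 0.128) or with the GC and length correction (0.0931). Bub1b, Plk1 and Kif11 were lower among mitotic genes (log2 fold changes -0.37, -0.47 and -0.27), as was Bub1 (-0.29), named after its value was seen, and that count was 1 or 2 with any 1 library left out. The adjusted p of Bub1b was 0.0112 (0.0708 without WT replicate 1) and that of Plk1 0.0265 (0.055, 0.0764 and 0.124 without SF1 replicate 1, SF1 replicate 2 and WT replicate 2). For Kif11 it was 0.0369, and 0.0649 to 0.168 with any 1 library left out, and 0.0527 with the GC and length correction. For Bub1 it was 0.0491, and it was over 0.05 with any library but SF1 replicate 1 left out (0.0933 to 0.24). Top2a and Ccna2, the most abundant of that list, did not pass (-0.13 and -0.17). Over the full lists, 33.3% of the tested members and 29.2% of the S phase genes were lower, with median log2 fold changes of -0.22 and -0.24. The fold change was negative for 32 of the 39 members and for 21 of the 24 S phase genes. The nucleotide genes with the steepest drops, Cad and Ampd2, lay below Uhrf1, the lowest S phase gene. Rrm1, Rrm2, Tyms, Tk1 and Dut, which act with S phase, lay between -0.19 and 0.10. The part of cell division in these values was not tested.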

How the data were processed

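RNA from sorted CLPs (3 SF1 and 2 WT libraries) was amplified by SMART-Seq (version 2 or 4, not stated which for each library) and made into Nextera XT libraries, per the labels' protocols. The deposited table holds the authors' whole-number counts per gene, with HISAT2 2.2.1, featureCounts 2.0.1 and GRCm38 named in the submitters' processing notes; how multi-mapped reads were treated, the strand setting and the release of the annotation used remain not given in the sources used here. Amplified reads without molecular identifiers are not independent molecules.

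Counts were fitted with edgeR 4.0.16 in R 4.3.3 (TMM, filterByExpr with a minimum count of 10, quasi-likelihood F test, no covariate, Benjamini-Hochberg adjustment over all 14423 genes tested, threshold 0.05); the SE is the fold change over the square root of F. CPM use TMM-scaled totals, and RPKM divide these by the exon length of GENCODE M21, which held 55227 of the 55487 identifiers. Promoters came from RefSeq (GRCm38.p6), 1 a gene, and 37 of 40 members matched. The fit was also run on simulated data, where it recovered 14 of 66 genes (21.2%) with a log2 change of 0.5 and 66 of 67 with a change of 1. The simulation gave every gene the same dispersion and changed 66, 67 and 67 genes by 0.5, 1 and 2. In the data 2382 genes passed, which makes the adjusted threshold easier to reach. The simulated shares are therefore not the power of this comparison. A gene that did not pass may still differ between the groups. Libraries of 1 group differed by more than counting noise (chi-square per degree of freedom 6.38 to 8.81), so none was treated as a duplicate deposit; this does not show that they came from separate animals.

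Alternatives were DESeq2 1.42.0, its size factors in edgeR, limma 3.58.1 with voom and sample weights, no filter, a minimum count of 50, thinning to 8894288 counts, a correction for GC content and exon length (mgcv 1.9.3), a replicate block, both of the last together, and leaving out each library. Named genes were all members, and of each other list up to 3 that passed with the smallest p and the 2 with the highest mean CPM, with Il7r, Flt3 and Jak2. Some genes this rule selects are not reported here. The members and all gene lists were chosen with earlier results of these data known, so no list was tested.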

Additional observations from a re-analysis of the deposited data

How the results depend on the processing

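The 14 members that passed the test kept their direction in all 14 alternatives, and 7 (Cad, Gart, Impdh1, Ampd2, Shmt1, Mthfd1 and Samhd1) also kept an adjusted p under 0.05; of 546 member values under alternatives, 36 no longer passed, 9 newly passed and 19, all of members that had not passed and lay near 0, changed sign. With 1 library left out, the lower members numbered 6 to 11, lower de novo enzymes 3 to 5, lower salvage enzymes 1 to 4, lower other pathway genes 2 to 8 and higher ones 0 to 3, lower S phase genes 2 to 8, lower mitotic genes 1 to 2, and all genes 522 to 1265 lower and 464 to 905 higher; the lowest counts over all genes came without WT replicate 1, the deepest library, and for higher genes also without SF1 replicate 2. Whether the replicate numbers pair the libraries is not known. Correlations of deviations from the group means were 0.0356 and 0.0646 for shared numbers. The deviations of 2 WT libraries mirror each other, so these values cannot decide it. With the number as a replicate block, 8 members, 2 salvage enzymes, 3 other pathway genes, 2 S phase and 2 mitotic genes were lower, and 1 other pathway gene and 574 of all genes were higher. The GC and length correction with the replicate block gave 5 other pathway genes, 4 S phase genes, 1 mitotic gene and 851 of all genes lower, and 2 other pathway genes higher, as did DESeq2 (2) and the stricter filter (2). No filter on low counts gave 13 lower S phase genes. Signs turned, on the log2 scale, with the GC and length correction for Dhodh (0.00967), Ctps2 (-0.024), Tk1 (0.086), Nme1 (-0.00493), Prpsap1 (0.070) and Phgdh (0.012), and with the replicate block added for Ctps2 (-0.040), Tk1 (0.086), Nme1 (-0.00701), Prpsap1 (0.058), Phgdh (0.068) and Slc29a1 (0.00204). Ctps2 also turned with DESeq2 size factors (-0.00292), DESeq2 (-0.011), no filter (-0.014) and the block (-0.00157). Aprt turned with no filter (-0.000919) and Ak3 with the stricter filter (0.00868). With 1 library left out, Adss ranged from -0.19 to 0.081, Ak3 from -0.050 to 0.018, Aprt from -0.041 to 0.057, Cmpk1 from -0.11 to 0.022, Ctps2 from -0.035 to 0.046, Nme1 from -0.027 to 0.088, Prpsap1 from -0.046 to 0.00347 and Tk1 from -0.081 to 0.034. The cause was not tested, beyond the smaller number of libraries where 1 was left out. With 2 WT libraries, leaving 1 out assumes that the lone library varies like the SF1 libraries. Depth limits what can be read of low genes such as Nme2 (3 to 10 counts a library) and Gda (1 to 82).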
